A study of Drosophila melanogaster with 12 samples.

Results

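Antimicrobial peptide genes were followed in adult heads of cn bw *Drosophila melanogaster* through a light/dark day and a day in constant darkness. The genes were chosen by name: Mtk, Drs, Drsl5, AttA, AttC, Dro, Def and CecA1. Of these 8 genes, 5 (Mtk, Drs, Drsl5, Dro and Def) had a probe set named here, among 10863 genes with a probe set in all. AttA, AttC and CecA1 were not analysed here. Each of the 5 genes had 1 probe set. The probe set of Dro was named through a list of probe set identifiers in the RefSeq gene table, because the platform annotation used here gives it no gene. Where both sources name a probe set, they gave the same gene in 113 of 113 cases.

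All flies carried the eye colour mutations cinnabar and brown (cn bw), had been entrained to alternating light and dark, and were collected every 4 hours. The first 6 collections, ZT4 to ZT24, fell in a further light/dark day, where ZT counts hours from lights on. The next 6, CT4 to CT24, fell in the following day in constant darkness, where CT counts hours from the time at which lights would have come on. Each time point was 1 Affymetrix array on RNA from a large pool of sieved heads. Sex and age are not given in the sources used here. Because darkness always followed the light/dark day, effects of light, of time passed and of batch cannot be told apart. No time point had a second array, and whether each was a collection of its own is not stated, so each p-value measures the spread of single arrays around a fitted curve.

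Antimicrobial peptides are small secreted proteins of the innate immune response. In flies they are made largely by the fat body, which also lines the inside of the head, and by surface epithelia and blood cells. The Toll and Imd signalling pathways switch their genes on. Toll responds mainly to fungi and many Gram-positive bacteria, and Imd responds to the peptidoglycan of Gram-negative bacteria. Metchnikowin (Mtk) acts on fungi and bacteria and takes input from both pathways. Drosomycin (Drs) is the classic antifungal peptide and Toll readout, and Drsl5 is a drosomycin-like gene. Drosocin (Dro) is a proline-rich peptide against Gram-negative bacteria under Imd control, and defensin (Def) acts mainly against Gram-positive bacteria. In the RefSeq table, Drs and Drsl5 lie on the same chromosome arm with 10 protein-coding genes between them, and Dro lies next to AttA.

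The values are RMA signals, taken as log2, so a difference of 1 is a factor of 2. All 5 genes were well above background in both days. Their means over the 12 arrays ran from 6.44 for Def to 8.21 for Mtk, while the highest single value of the 8 mouse and yeast control probe sets was 4.04. The means exceeded those of 83.8% of tested probe sets for Def, 87.1% for Drsl5, 95.8% for Dro, 96.5% for Drs and 96.6% for Mtk. Mtk and Drsl5 were also among the most variable. Their SDs over the 12 arrays, 0.61 for each, exceeded those of 98.4% and 98.3% of probe sets. Signals of different probe sets are not set against each other, because each has its own hybridisation efficiency. In bulk heads, fewer cells of a type and less RNA per cell cannot be told apart.

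Some arrays stood apart before any peptide gene was considered. The difference between 3′ and 5′ control probe sets, which grows as RNA shortens, was 3.32 at ZT24, 2.88 at CT4 and 2.58 at ZT16, against 1.49 to 2.13 on the other 9 arrays. At CT8 the gut marker list lay a median 0.61 above its genes' means and the neuron list stood at -0.38. The photoreceptor list was at -0.74 at ZT12 and -0.72 at ZT16, and the muscle list at -0.54 at ZT12, -0.65 at ZT16 and -0.76 at CT4. The labelled tissue was checked on photoreceptor genes, of which 6 of 8 listed were measured. Among them ninaE, the major rhodopsin, had a mean of 12.22.

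Drsl5 and Dro had the largest day differences of the 5 genes, both with higher signal in constant darkness. Drsl5 averaged 6.25 ± 0.32 (SD, n = 6) under light/dark and 7.11 ± 0.51 (SD, n = 6) in darkness, a 1.82-fold difference. Dro averaged 7.71 ± 0.29 and 8.17 ± 0.21, a 1.38-fold difference. Between the days, the means differed by -0.10 for Mtk, 0.04 for Drs and 0.07 for Def. None of the 5 differences passed the test adjusted over all probe sets.

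Drsl5 measured 6.57, 6.58, 6.44, 5.96, 5.85 and 6.09 from ZT4 to ZT24. It then measured 6.77, 6.94, 8.04, 6.57, 7.10 and 7.23 from CT4 to CT24. The light/dark values lay between 5.85 and 6.58, with the 3 lowest at ZT16, ZT20 and ZT24. All 6 values in darkness were above the light/dark mean, and CT12 stood highest. The ranges met at one point, since ZT8 (6.575) exceeded CT16 (6.567). Set hour by hour, Drsl5 was higher in darkness at 6 of 6 hours, by 0.20 at hour 4 up to 1.60 at hour 12. The fitted difference was 0.86 ± 0.21 (SE), with a 95% interval of 0.40 to 1.33. By limma it had p = 0.00177 (n = 12 arrays), the 9th smallest of 13966 probe sets, and an adjusted p of 0.93.

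Dro measured 7.67, 7.94, 7.94, 7.57, 7.20 and 7.92 across the light/dark day. In darkness it measured 8.23, 7.94, 8.51, 8.27, 7.96 and 8.11. The lowest value was at ZT20 and the highest at CT12. Here too the ranges only touched, with ZT12 (7.944) just above CT8 (7.943). Dro was higher in darkness at 6 of 6 hours, although by 0.002 at hour 8, against 0.76 at hour 20. The fitted difference was 0.46 ± 0.13 (SE), with a 95% interval of 0.18 to 0.75. By limma it had p = 0.00421 (n = 12 arrays), rank 29 of 13966, and an adjusted p of 0.93.

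The day difference of the other 3 genes was smaller than its error or close to it. For Mtk it was -0.10 ± 0.33 (95% interval -0.83 to 0.63), for Drs 0.04 ± 0.19 (-0.38 to 0.45) and for Def 0.07 ± 0.11 (-0.16 to 0.30). All 3 intervals include 0. At the same hours Mtk was higher in darkness at 3 of 6, Drs at 2 of 6 and Def at 4 of 6.

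Against all probe sets, 0 of 5 genes passed an adjusted p of 0.05 for the day difference in limma, and 0% of the 13966 did, with a smallest adjusted p of 0.93. At an unadjusted p under 0.05, 2 of 5 genes (Drsl5 and Dro) passed, against 3.65% of all probe sets. The fitted difference was positive for 4 of 5 genes, against 44.5% of probe sets. The day groups were fully separate for 0 of 5 genes, against 0.193% of probe sets. Signal was higher in darkness at every hour for 2 of 5 genes, against 0.888%.

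**Figure D1:**
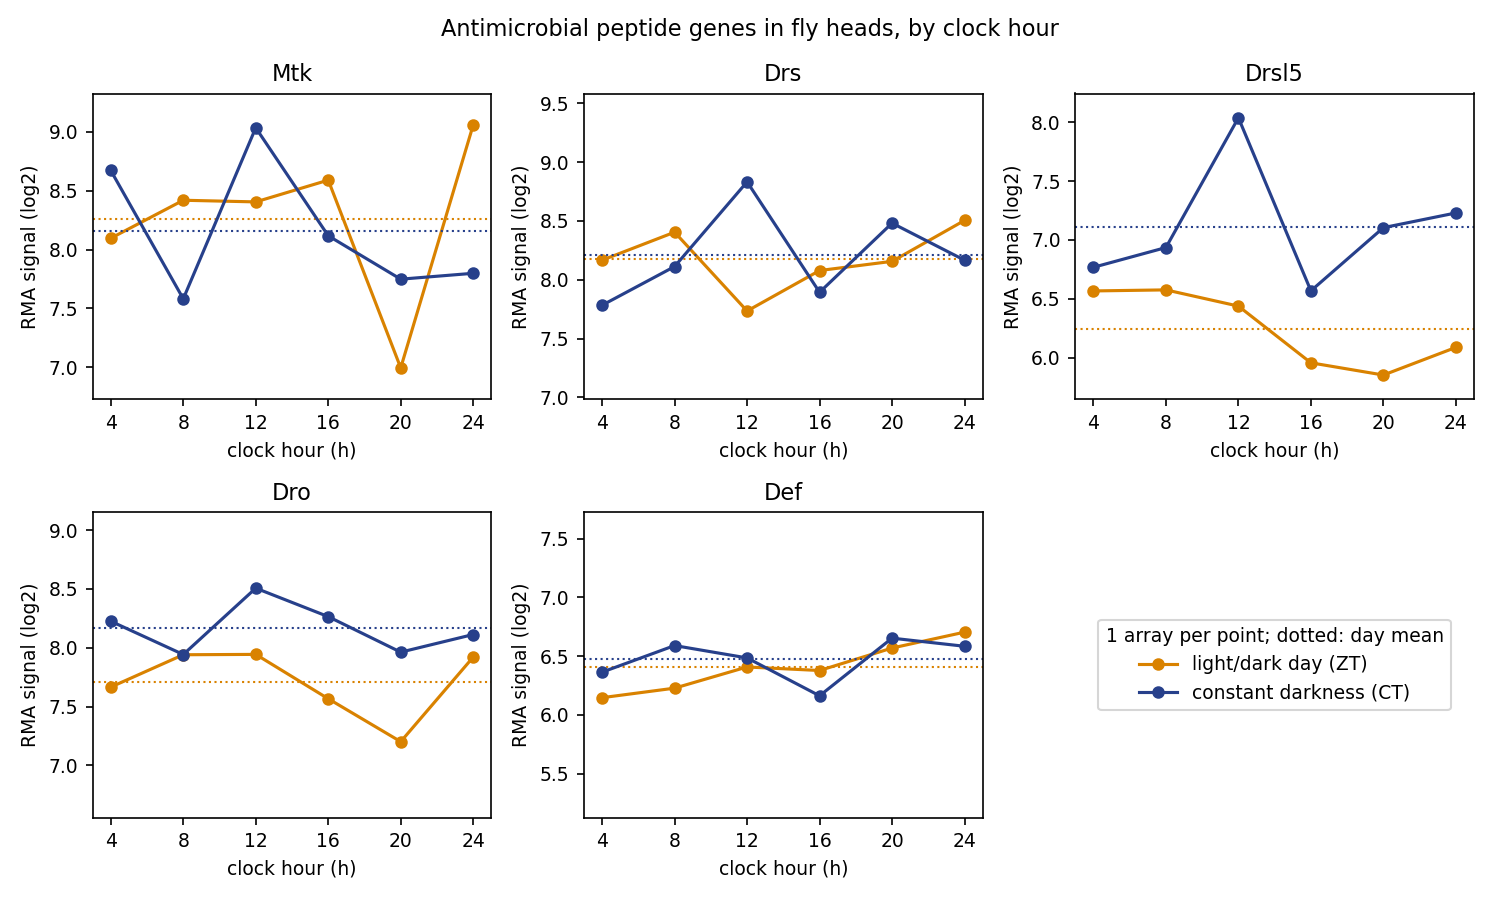
RMA signal (log2) of Mtk, Drs, Drsl5, Dro and Def against clock hour, with 1 array per point, the light/dark day and constant darkness in separate colours, and dotted lines at the day means. The vertical axes cover equal spans but start at different values. Drsl5 and Dro lie higher in darkness at 6 of 6 hours, while Mtk swings between arrays without a shift in its mean.

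Marker lists were set beside the day difference, first those of fat body and haemocytes, cell types that make these peptides. Of 11 head fat body markers, 8 were measured. Their summed linear signal ran from 16133 at ZT16 to 27981 at ZT20 in the light/dark day. In darkness it ran from 21017 at CT4 to 30093 at CT12. Such a sum mostly reflects the genes of highest signal, here the yolk protein genes Yp1, Yp2 and Yp3 (means 13.18, 12.68 and 12.67). Of the 8 markers, 5 were higher in darkness, from 0.01 for apolpp to 0.49 for Tsf1, the iron carrier transferrin. Those lower in darkness were Fbp2, fat body protein 2 (-0.37), Lsp2 (-0.20) and Fbp1 (-0.12). Of 11 haemocyte markers, 10 were measured. Their sum ran from 275.1 to 304.0 in the light/dark day and from 294.6 to 336.2 in darkness, with 7 of 10 higher in darkness. Of the haemocyte markers, PPO2 (mean 6.54), Pxn, PPO1 (5.36) and Hml (5.13) were above the highest foreign control value, and NimC1 (4.06) barely so. The means of crq (3.95), lz (3.63), eater, Sr-CI and srp (2.85 to 3.04) were not above it. PPO2, a prophenoloxidase of crystal cells, differed by 0.23 ± 0.08 (SE). The genes lower in darkness were crq (-0.15 ± 0.19), srp (-0.12) and lz (-0.09). The haemocyte count and correlations therefore include genes at the level of the foreign controls, where a difference says little about the transcript. The haemocyte list had r = 0.65 with Dro over the 12 arrays (0.74 without CT4 and CT24) and 0.46 with Drsl5. The photoreceptor list had the largest median day difference of the marker lists, 0.29, with 5 of 6 higher in darkness, beside 0.12 for fat body and 0.05 for haemocytes. Its summed signal ran from 4058 to 8202 under light/dark and from 5491 to 8925 in darkness. It had r = 0.56 with Drsl5, 0.63 with Drs and 0.23 with Dro. These correlations are descriptions over shared arrays, and the part of tissue makeup in the Drsl5 and Dro values was not tested.

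The higher signal of Drsl5 and Dro did not rest on a single array. With each of the 12 arrays left out in turn, the Drsl5 difference ran from 0.67 without CT12 to 0.98 without CT16. Its unadjusted p was under 0.05 in 12 of 12 fits, the largest being 0.00558 without CT24 (n = 11). The Dro difference ran from 0.38 without ZT20 to 0.56 without CT8, again with p under 0.05 in 12 of 12, the largest being 0.0122 without CT12 (n = 11). Without both ZT20 and ZT24, Drsl5 differed by 0.81 and Dro by 0.46.

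The sign of the Mtk and Drs differences did depend on single arrays. For Mtk it ran from -0.35 without ZT20 to 0.15 without ZT24, and was also positive without CT8. For Drs it ran from -0.12 without CT12 to 0.14 without CT4. Def kept a positive value in all 12 fits, from 0.004 without ZT4 to 0.15 without CT16.

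**Figure D2:**
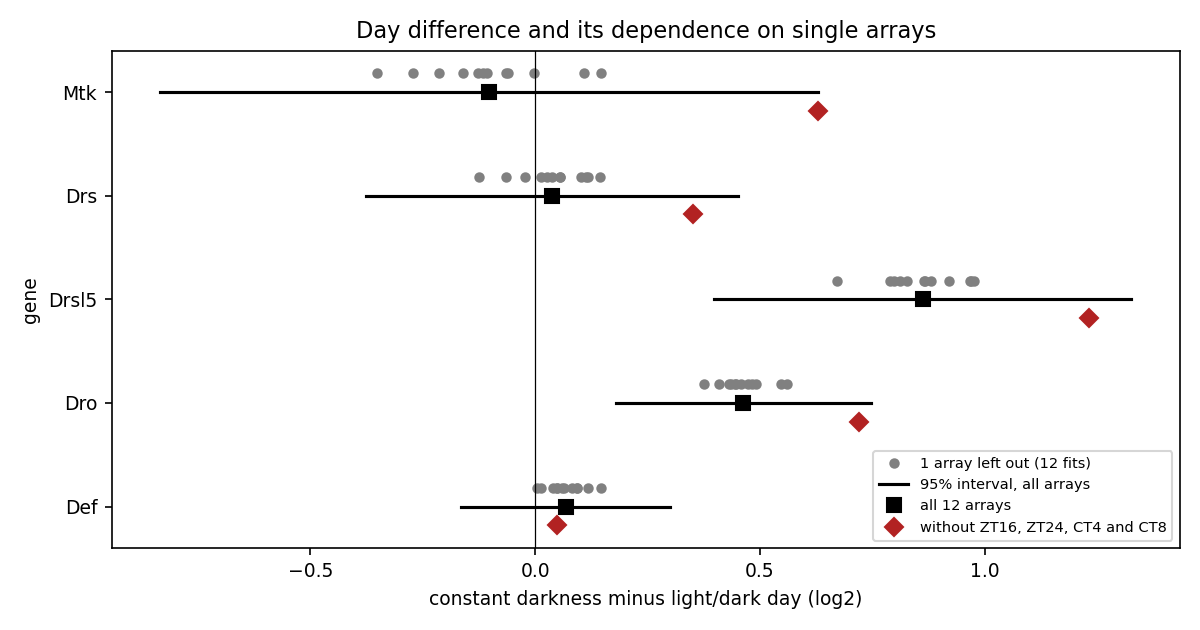
Difference between constant darkness and the light/dark day (log2) for each gene, with the fitted value and its 95% interval over 12 arrays and grey points for the fits that leave out 1 array each and red diamonds for the fit without ZT16, ZT24, CT4 and CT8. The intervals of Drsl5 (0.40 to 1.33) and Dro (0.18 to 0.75) lie above 0, and the points of Mtk and Drs fall on both sides of it.

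When the 3 arrays with a large 3′ to 5′ difference and CT8 were left out together, 2 calls appeared. These were Dro for the day difference and Mtk for the 24-hour rhythm given below. Dro then differed by 0.72 ± 0.08 (SE; limma adjusted p = 0.0392), 1 of 5 genes called, against 0.0931% of probe sets. Drsl5 differed by 1.23 (adjusted p = 0.0829) and Mtk by 0.63 (adjusted p = 0.0600), the latter with its sign turned. This setting leaves 4 arrays a day, at hours 4, 8, 12 and 20 in the light/dark day and 12, 16, 20 and 24 in darkness, so the days share 2 of their 4 hours. It also leaves out the 2 arrays whose single removal most raised the Dro difference, CT8 (0.56) and ZT24 (0.55). Removing ZT16 or CT4 alone gave 0.44 and 0.46, beside 0.46 with all arrays.

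Mtk had the largest step between consecutive arrays of the 5 genes, while its day means were close. It measured 8.10, 8.42, 8.41, 8.59, 6.99 and 9.06 from ZT4 to ZT24. In darkness it measured 8.67, 7.58, 9.04, 8.12, 7.75 and 7.80. The lowest and the highest of the 12 values were thus consecutive collections, ZT20 and ZT24, and the values of the 2 days overlapped broadly.

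From ZT16 to ZT20 the step of Mtk was -1.60, a 3.02-fold lower signal, and 3 of 13966 probe sets, Mtk included, stepped down as far. From ZT20 to ZT24 its signal was 2.07 higher, or 4.18-fold, and 5 probe sets stepped up as far. In darkness the step from CT8 to CT12 was 1.45, or 2.74-fold, matched by 98 probe sets (0.702%). Over all probe sets, the median absolute size of these 3 steps was 0.17 to 0.19. Measured against the mean of the other 5 arrays of its day, Mtk stood at -1.52 at ZT20, with 8 probe sets (0.0573%) as low. It was 0.96 higher at ZT24 (122 probe sets, 0.874%) and 1.05 higher at CT12 (25 probe sets, 0.179%). These steps have no replicate array, so they describe these collections.

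No array of any of the 5 genes met Dixon's criterion for an outlier among 6 values, at its 95% critical value for the gap over the range. The highest ratios were 0.55 for Drsl5 at CT12, 0.53 for Mtk at ZT20 and 0.49 for Dro at ZT20. ZT20 was the lowest light/dark array for Mtk, Drsl5 and Dro. CT12 was the highest array in darkness for Mtk, Drs, Drsl5 and Dro.

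The other genes had single-array departures too. Drsl5 at CT12 was 1.12 above the other 5 arrays in darkness (20 probe sets, 0.143%, as high), slightly more than Mtk on that array. Its step to CT16 was -1.47, against -0.92 for Mtk. Dro at ZT20 stood at -0.61 against its day (305 probe sets, 2.18%). Drs measured 8.17, 8.40, 7.73, 8.08, 8.16 and 8.50 under light/dark and 7.78, 8.11, 8.83, 7.89, 8.48 and 8.17 in darkness. Its low light/dark array was ZT12 rather than ZT20, at -0.53 against the others and on the array where photoreceptor markers were lowest, and its high one in darkness was CT12, 0.75 above. Def had the narrowest range, 0.56 over all 12 arrays. It measured 6.15, 6.23, 6.41, 6.38, 6.57 and 6.70 from ZT4 to ZT24, so its lowest and highest values opened and closed that day. In darkness it lay between 6.16 at CT16 and 6.65 at CT20, with no such order.

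No 24-hour rhythm was detected for any of the 5 genes. Amplitude, the fitted peak minus the fitted mean, was 0.27 ± 0.24 (SE) for Mtk, 0.26 ± 0.15 for Drsl5, 0.17 ± 0.09 for Dro, 0.12 ± 0.07 for Def and 0.03 ± 0.13 for Drs. The fitted peaks of Mtk, Drsl5 and Dro fell near hour 9, at 9.1, 8.7 and 9.2, and that of Def at 21.8. Each adjusted p was 1 in limma. At adjusted p under 0.05, 0 of 5 genes passed, against 0.00716% of probe sets (1 of 13966). At unadjusted p under 0.05, 0 of 5 passed, against 1.65%. With single arrays left out, the Mtk amplitude ranged from 0.08 without ZT20 to 0.48 without ZT24 and that of Drs from 0.02 without CT8 to 0.19 without CT12. That of Dro ranged from 0.09 without ZT20 to 0.26 without CT8, the latter with an unadjusted p of 0.0296 (limma, n = 11; adjusted p = 1.0). With ZT16, ZT24, CT4 and CT8 all left out that of Mtk was 0.79 ± 0.06 (limma adjusted p = 0.0407), so that 1 of 5 genes was called, against 0.0573% of probe sets. That of Dro was 0.36 ± 0.05 there (limma adjusted p = 0.0885).

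The difference of the rhythm terms between the days passed the adjusted test for none of the 5 genes in limma. The size of the difference, the length of the vector of the cosine and sine differences, was 0.47 ± 0.25 (SE) for Drs, 0.38 ± 0.31 for Drsl5, 0.26 ± 0.18 for Dro, 0.25 ± 0.52 for Mtk and 0.21 ± 0.15 for Def. Adjusted p in limma ran from 0.986 to 0.994. At adjusted p under 0.05, 0 of 5 genes passed, against 0.00716% of probe sets, and at unadjusted p 0 of 5 passed, against 2.62%. Single arrays moved these values. Without CT16, Drs was at 0.80 (unadjusted p = 0.00612, n = 11) and Drsl5 at 0.80 (unadjusted p = 0.0219, n = 11), both with an adjusted p of 0.80 in limma. Without CT12, Drsl5 was at 0.56 (unadjusted p = 0.0154, n = 11; adjusted p = 0.93) and Drs at 0.26, and without CT4 Drsl5 was at 0.24. Without ZT20, Mtk was at 0.66, without CT8 at 0.56. Dro ran from 0.15 without CT8 to 0.38 without ZT4 and Def from 0.14 without CT8 to 0.32 without CT20. Drs had its highest values at ZT24 and ZT8 in the light/dark day and at CT12 and CT20 in constant darkness.

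The 5 genes did not move as a block. Correlations are given over the same 12 arrays, which share hour, tissue makeup and RNA quality, and are descriptions only. Drsl5 and Dro had r = 0.78, or 0.52 without CT12 and ZT20. Values within a day rest on 6 arrays each. Mtk and Dro had r = 0.54 over both days (rank correlation 0.24) but 0.82 within the light/dark day and 0.91 within darkness. Without ZT20 and ZT24 the pooled r was 0.30. Drs and Drsl5 had r = 0.91 in darkness and -0.07 in the light/dark day, and the pooled r of 0.46 became -0.03 without CT12 and ZT12. Def had r between -0.16 and 0.38 with the other 4.

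The swing of Mtk was shared with most measured genes of a further class of immune peptides. This class is the Bomanins and related secreted short peptides, which are mostly induced through Toll. Of 23 listed genes 10 were measured. Over the 10, the median departure from each gene's mean was -0.67 at ZT20, 0.65 at ZT24, 0.35 at CT4, -0.52 at CT8 and 0.61 at CT12, the arrays at which Mtk was also low or high. From ZT16 to ZT20, 8 of 10 were lower, with a median step of -0.73. From ZT20 to ZT24, 8 of 10 were higher, with a median step of 1.39. ZT20 was the lowest light/dark array for 7 of 10 and ZT24 the highest for 7 of 10. From CT20 to CT24, 10 of 10 were higher, with a median step of 0.49, while Mtk stepped by 0.05. No share over all probe sets was worked out for these counts or for the correlations below, so they describe these genes only.

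IM33, an immune-induced peptide, measured 9.78 at ZT20 and 11.76 at ZT24. BomS5, a short Bomanin, measured 8.21 and 9.98 at the same times, 8.20 at CT8 and 10.09 at CT12. Along the 12 arrays, Mtk had r of 0.85 to 0.90 with BomT2, IM33, BomS2, BomS6, BomS5 and BomS4, which makes 6 of the 10 above 0.8. BomBc2, BaraB and BomT3 followed another course, with r of -0.27, -0.03 and 0.16. No gene of the Bomanin list had r above 0.8 with Drs, Drsl5, Dro or Def. Dro shared the course in part, with r from -0.43 (BaraB) to 0.79 (BomBc3). Its median over the 10 was 0.55, beside 0.85 for Mtk. Without ZT20 and CT12, the highest r of Dro was 0.46.

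**Figure D3:**
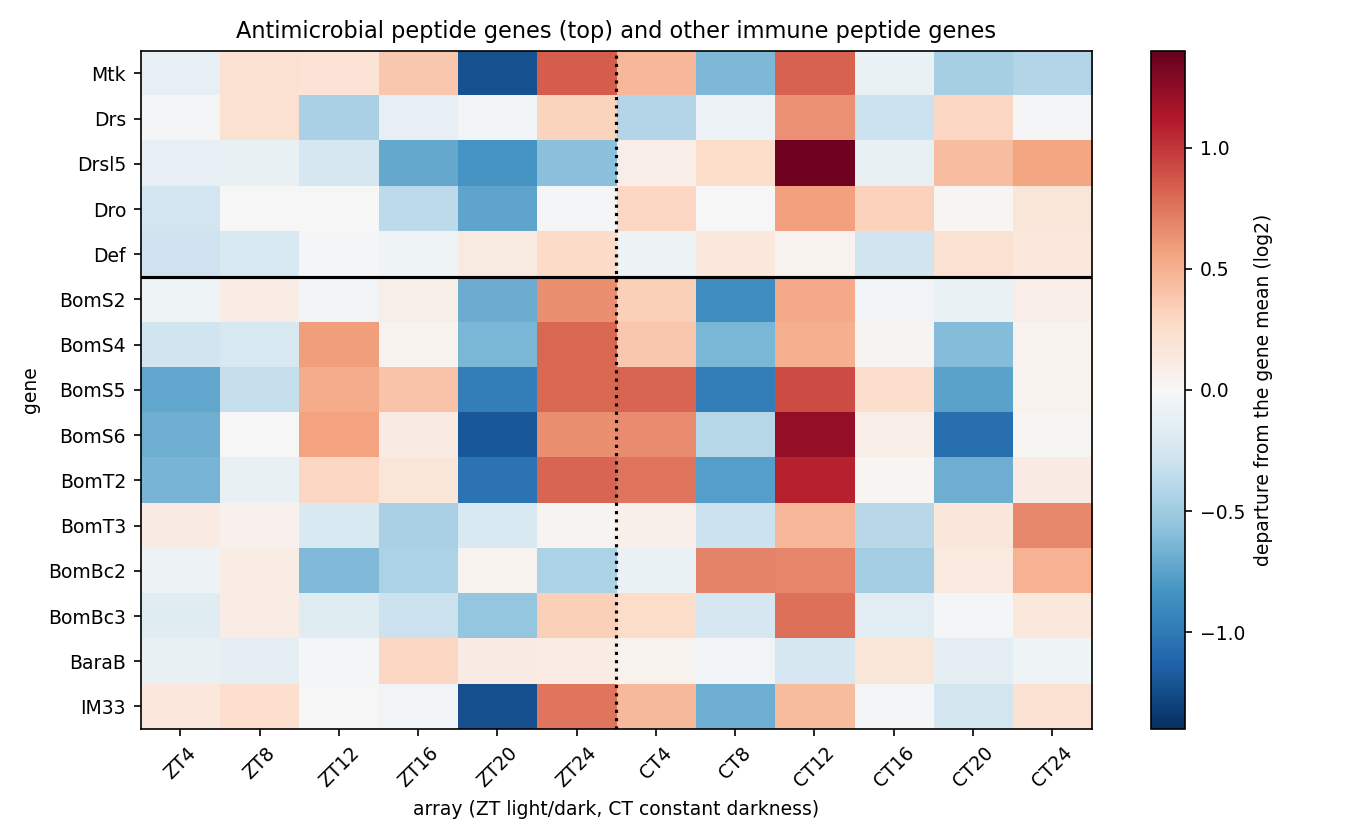
Departure of each gene from its own mean over the 12 arrays (log2, colour), for the 5 antimicrobial peptide genes and the 10 measured Bomanins and related peptides, with arrays from ZT4 to CT24 across. Mtk and most Bomanins are low at ZT20 and CT8 and high at ZT24 and CT12, while Drsl5 is lower across the light/dark day and higher in darkness.

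Among 3018 genes with enough variation, those most like Mtk were Gbp1 (r = 0.92, and 0.84 without ZT20 and ZT24), which encodes a cytokine-like growth-blocking peptide, the scavenger receptor gene santa-maria (0.92 and 0.83), and spz (0.92 and 0.88), which encodes the Toll ligand. The spz signal averaged 3.85, at the level of the foreign control probe sets. Drs was most like the prefoldin subunit gene Pfdn5 (0.87), the cytochrome P450 gene Cyp9b2 (0.84) and the immune-regulated catalase gene Irc (0.84), with 0.66 to 0.72 when CT12 and ZT12 were left out. Drsl5 was most like CG14615, CG14277 and Ip259 (0.83 to 0.85), of which CG14615, at a highest value of 3.97, was not above the foreign controls. Dro was most like the odorant-binding protein gene Obp56h (0.84), Cyp4ac2 (0.84, at a mean of 3.88) and CG11211 (0.82), and these were 0.56 to 0.62 without ZT20 and CT12. All of these are over n = 12 arrays, and the closest of 3018 genes is high by selection.

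RNA quality moved with Mtk in part. Across the 12 arrays the 3′ minus 5′ signal had r = 0.60 with Mtk, and 0.36 without ZT24 and CT4. The array with the highest Mtk signal, ZT24, had the largest 3′ to 5′ difference (3.32), and ZT20, with the lowest Mtk signal, had 1.60. CT12 was among the 9 arrays at or below 2.13 and had an Mtk signal of 9.04. With this signal as a covariate the Mtk day difference was 0.04 in place of -0.10, that of Drsl5 0.80 and that of Dro 0.50. The 3′ minus 5′ signal had r = 0.09 with Dro and -0.39 with Drsl5. The summed fat body markers, which mostly reflect the yolk protein genes, were highest in the light/dark day at ZT20, the array where Mtk was lowest. The fat body list had r = -0.32 with Mtk, and the haemocyte list 0.40 (0.71 without CT4 and CT24). Over the other marker lists, r with Mtk ran from -0.57 for muscle to 0.44 for neurons. The part of RNA quality or of tissue makeup in the Mtk swings was not tested.

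**Figure D4:**
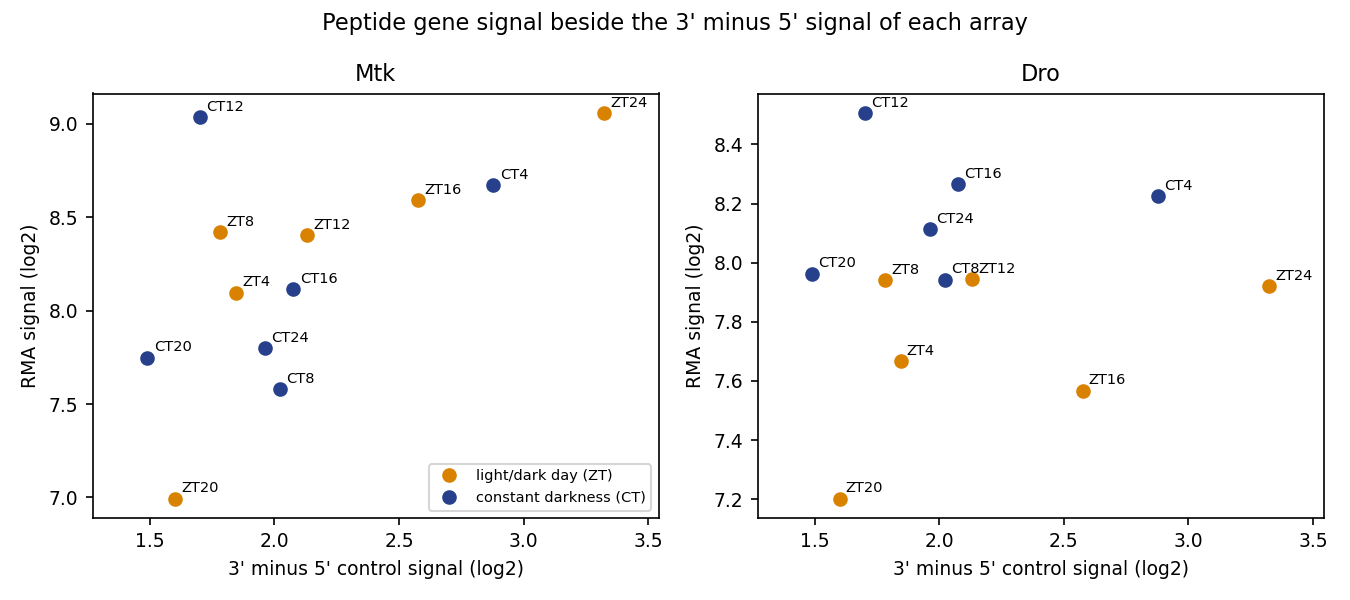
RMA signal (log2) of Mtk and of Dro against the 3′ minus 5′ control signal of the same array (log2), 1 point per array, coloured by day. ZT24 and CT4 lie far to the right at 3.32 and 2.88; Mtk is high on both, and low at ZT20 (1.60).

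The wider immune lists showed no called change between the days. Over 7 lists, 66 of 105 genes were measured, 30 were higher in darkness and 36 lower, and 5 were higher and 4 lower at an unadjusted p under 0.05. That is 13.6% of the 66, beside 3.86% of all 10863 genes (189 higher and 230 lower), and was not tested as a set. The median difference was -0.008, beside -0.009 over all 10863 genes. In limma, 0 of 66 passed at an adjusted p of 0.05 for the day difference, the rhythm or the difference of rhythm.

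Among other antimicrobial peptides, 6 of 13 were measured and 5 of these were lower in darkness. The values ran from -0.19 ± 0.07 (SE) for Drsl6, another drosomycin-like gene and the opposite sign to Drsl5, to 0.06 ± 0.09 for Anp, the male-tract peptide andropin. The Drsl6 probe set has the suffix _s_at, so it may also read related transcripts. Among the Bomanins and related peptides, 7 of 10 were higher, from -0.10 ± 0.28 for BomS4 to 0.48 ± 0.20 for BomBc2. These lists therefore had medians of opposite sign, -0.10 and 0.14.

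In the Imd pathway, 12 of 15 genes were measured, with 4 higher and 8 lower in darkness. Rel, the NF-κB factor that Imd activates, differed by 0.37 ± 0.15, and Fadd, the adaptor that joins Imd to its caspase, by -0.11 ± 0.07 at a mean of 2.66. Fadd was thus within the level of the foreign controls, where a difference says little about the transcript. In the Toll pathway, 16 of 20 were measured, with 8 higher and 8 lower. SPE, the protease that cleaves Spätzle, differed by 0.37 ± 0.23, and Dif, an NF-κB factor of adult Toll signalling, by -0.35 ± 0.14 at a mean of 3.17, within the level of the foreign controls. Unadjusted p was 0.0296 for Rel and 0.0260 for Dif (limma, n = 12).

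Of 11 amidases and Imd inhibitors, 9 were measured and 4 were higher, from -0.20 ± 0.10 for casp to 0.16 ± 0.17 for trbd, the deubiquitinase trabid. Of 16 JAK-STAT and stress peptide genes, 6 were measured and 3 were higher, from -0.21 ± 0.09 for TotE, a Turandot stress peptide, to 0.41 ± 0.21 for Tep4, a thioester protein. All 7 lysozymes were measured and 3 were higher, from -0.29 ± 0.13 for LysS to 0.21 ± 0.19 for LysD. The gut also expresses these lysozymes, 4 of which served as gut markers, and the lysozyme sum was highest at CT8. LysB, LysC, LysD and LysE had family probe sets (suffix _f_at) and were each highest at CT8. Their values may therefore not be separate measurements.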

How the data were processed

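The authors deposited 1 RMA value per probe set and array, per the submitters' processing notes, which give no version. The unit was taken as log2 from the range of the deposited values; RMA corrects background, normalizes between arrays and compresses changes of dim probe sets. Of 14010 probe sets, 44 controls were set aside and 13966 tested. Names came from the platform annotation, updated through RefSeq (Release 6 plus ISO1 MT, names and gene order only); the sources used here do not state the array's genome build. For genes with several probe sets the one of highest mean was used.

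limma 3.58.1 (R 4.3.3) fitted a step between days with 1 cosine and 1 sine of 24 hours; a second model had separate cosines and sines per day. Benjamini-Hochberg adjustment covered all 13966 probe sets (threshold 0.05), and the analysis was tested on simulated data. The planted effects were larger than those fitted for these genes. The simulation therefore does not tell whether effects of the size seen here would be called. Arrays give no depth; their number limits precision. From each other list the genes with the most positive and most negative day difference were named, and likeness was ranked by Pearson's r among genes with an SD of at least 0.2. The members, lists, markers and alternatives were chosen with earlier results of these data known.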

Additional observations from a re-analysis of the deposited data

How the results depend on the processing

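Counts of called members were 0 for the day difference, the rhythm and the difference of rhythm in up to 23 alternatives each, except that 1 member passed for the day difference (Dro) and 1 for the rhythm (Mtk) without ZT16, ZT24, CT4 and CT8, when 8 arrays are left. The Mtk day difference (-0.10) turned to 0.629 there and to 0.0437 with the 3′ minus 5′ covariate, and ran from -0.35 to 0.15 with single arrays left out. The Drs difference (0.04) ran from -0.12 to 0.14 with single arrays left out and was -0.0886 after quantile normalization again. Settings without CT12 (-0.12 for Drs) and without CT8 and CT12 (-0.19 for Drs, -0.0639 for Def) were chosen after seeing the data. The cause of these changes was not tested. The Drsl5 and Dro differences stayed positive in all alternatives, at 0.81 and 0.34 after quantile normalization. The same clock hour, and so the same replicate number, served as a block in 1 alternative: Drsl5 differed by 0.86 ± 0.18 (SE, limma adjusted p = 0.95) and Dro by 0.46 ± 0.11, and no call changed. The hours pair arrays of successive days only in clock time. A run over further probe sets was not made, because each member has 1.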
